A study of Homo sapiens with 4 samples.

Results

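The integrin and laminin genes are the cell's matrix receptors and one family of the matrix proteins that these receptors bind. They were taken by symbol alone, as the rows named ITGA with a number or letter, ITGB with a number, or LAMA, LAMB or LAMC with a number, and ITGA2B and ITGB3, the 2 subunits of the platelet fibrinogen receptor, were left out. This gave 35 of 17630 genes, of which 16 encode integrin alpha subunits, 7 integrin beta subunits and 12 laminin chains. ITGAD, a leukocyte alpha subunit, was not analysed here. The libraries follow stem cells on the way to blood, and the values show which receptor subunits and which laminin chains were high at each stage.

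Each library came from H1, an established human embryonic stem cell line, and each population was 1 library of bulk RNA. The populations were undifferentiated H1 cells (hESC), APLNR+ cells sorted on day 2 (MES), the CD31+CD34+ fraction of day 4 (HEP) and the CD31+CD43+ fraction of day 7 (HPC). The culture gave activin A (40 ng/ml) and BMP4 (50 ng/ml) for 2 days, VEGF (40 ng/ml) and bFGF (50 ng/ml) for the next 2 days, and VEGF and bFGF at these doses with the receptor kinase inhibitor SB-431542 for the last 3 days. All 4 libraries share the 1 cell line, and a sort is named for the differentiated populations only. With 1 library per population no value has a replicate error and no test across samples exists. Differences are therefore described by size: a gene counts as higher or lower where log2(value + 1) differs by at least 1 and the higher library stands at 5 or more. The values are normalised expression from RSEM and were read as levels per length of transcript, as RSEM's normalised measures are, so that genes can be set side by side; which of those measures they are is not stated, and their depth is unknown. Differences followed the GC content of transcripts in some comparisons, so values are also given after that trend was taken out of each library. Each value was also computed under 10 alternatives, which change the pseudocount (0.1 or 5), the minimum (none or 20), the fold (4 in place of 2), the scaling of libraries (3 ways) or take out the trend with GC content or length.

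The sort antigens and cell type markers were read as a check of the labels. APLNR stood at 344 in MES, CD34 at 43.6 in HEP and SPN, which encodes CD43, at 24.4 in HPC, but PECAM1, which encodes CD31, stood at 1.83 in HEP and 7.49 in HPC. The 6 stem cell markers summed to 2112 (hESC), 693 (MES), 129 (HEP) and 28.8 (HPC), and the 6 markers of streak and mesoderm to 2.75, 3289, 258 and 18 in the same order. The 8 endothelial markers summed to 32.8, 67.2, 600 and 292, and all 8 stood at 5 or more in HPC, beside 5 of 7 blood progenitor markers, whose sums were 0.94, 1.81, 64.3 and 150. Erythroid markers summed to 2700 in HPC and to 16.5 or less in the other 3 libraries, and megakaryocyte and platelet markers to 409 in HPC and 7.53 or less elsewhere. PTPRC, which encodes the leukocyte antigen CD45, stood at 0.04 in HPC, and of 9 myeloid and leukocyte markers 5 stood at 5 or more there. The 10 smooth muscle and mesenchyme markers summed to 216, 770, 634 and 184 from hESC to HPC. The 5 definitive endoderm markers summed to 1.08 (hESC), 45.2 (MES), 47.9 (HEP) and 8.89 (HPC), and 3 of them stood at 5 or more in MES and in HEP. None of the 5 trophoblast and amnion markers reached 5 in any library.

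An integrin is a pair of 1 alpha and 1 beta subunit that spans the membrane, binds matrix or another cell on the outside and is coupled to actin inside through talin and kindlin. The alpha subunit largely decides the ligand: alpha3, alpha6 and alpha7 with beta1 bind laminin, alpha5 with beta1 binds fibronectin, the alphaV pairs bind vitronectin, fibronectin and latent TGF-beta, and the beta2 pairs belong to leukocytes. Laminins are trimers of an alpha, a beta and a gamma chain that assemble into the sheet of a basement membrane, and human pluripotent stem cells attach to laminin through alpha6 beta1.

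Of the 35 genes, 14 reached 5 in any library: ITGA3, ITGA5, ITGA6, ITGA7, ITGA9, ITGAV, ITGB1, ITGB5, LAMA1, LAMA5, LAMB1, LAMB2, LAMC1 and LAMC3. Another 7 stood between 1 and 5 at their highest, and 14 stayed under 1 in every library, with a highest value of 0.75. Among the 14 genes that reached 5, ITGA6 and ITGA7 were highest in hESC, 7 were highest in MES, 5 in HEP and none in HPC as deposited. With the GC trend removed the same 2 were highest in hESC, 4 in MES, 7 in HEP (ITGAV, ITGB1 and LAMC1 being added) and 1, LAMB2, in HPC. The 23 integrin genes summed to 241 (hESC), 399 (MES), 354 (HEP) and 118 (HPC), and the 12 laminin genes to 70.4, 142, 128 and 90.3. These counts and sums leave out ITGA2B, at 3.90 in HEP and 283 in HPC, and ITGB3, at 0.56 and 74. Integrin sums with the GC trend removed were 151, 337, 472 and 149, so that HEP instead of MES was highest, and the laminin sums 62.6, 141, 133 and 95. As deposited the members together made up 0.0729% of the hESC library's summed values, 0.149% of MES, 0.157% of HEP and 0.0591% of HPC. In bulk RNA, fewer cells of a type and less RNA per cell cannot be told apart.

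**Figure D1:**
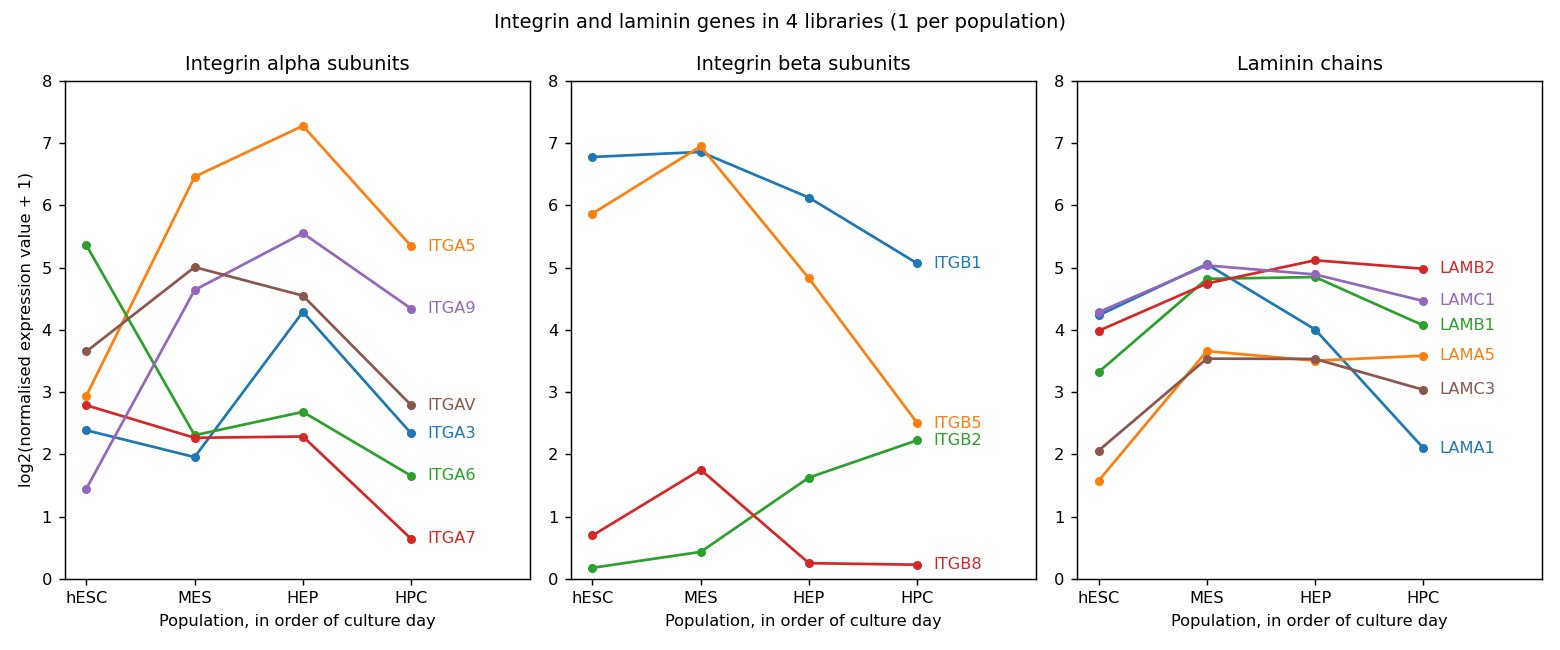
Each point is 1 library; the horizontal axis gives the population in order of culture day and the vertical axis log2 of the normalised expression value plus 1, for the members at 5 or more in any library and for ITGB2 and ITGB8. The lines of ITGA6 and ITGA5 cross between hESC and MES, and ITGB5 ends at 4.67 and LAMA1 at 3.29 in HPC. In these values as deposited LAMA5 is nearly level after MES.

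Counted by comparison, the first step held the most members that were higher. Between MES and hESC 7 of 35 were higher (ITGA5, ITGA9, ITGAV, ITGB5, LAMA5, LAMB1 and LAMC3) and 1 was lower (ITGA6). Over all genes 3.79% were higher and 3.7% lower in this comparison, or 8.97% and 8.76% of the genes at 5 or more in either library, a group that holds 13 of the members. Taking out the GC trend added LAMA1, for 8 members higher and 1 lower, with 4.08% and 2.05% of all genes (10.9% and 5.5% of those at 5 or more). The median log2 difference over all 35 members was 0.13, and -0.02 over all genes. Among genes at 5 or more in either library it was 1.08 over the members and -0.21 over all genes.

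Between HEP and MES 1 member was higher (ITGA3) and 2 were lower (ITGB5 and LAMA1), where 3.31% of all genes were higher and 13.9% lower (8.08% and 33.9% of those at 5 or more in either library). With the GC trend removed the members split 4 higher to 1 lower, ITGA3, ITGA6, ITGAV and ITGB1 against ITGB5, with 4.07% and 4.02% of all genes (10.6% and 10.4% of those at 5 or more). Median-of-ratios, upper quartile and common-total scaling gave 3 higher and 1 lower; the first of these scalings moved the median of 6388 genes at a mean of 5 or more from -0.30 as deposited to 0.23. The median difference was -0.00497 over the members and -0.11 over all genes, and -0.00497 and -0.39 among genes at 5 or more in either library.

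Between HPC and HEP no member was higher and 8 were lower: ITGA3, ITGA5, ITGA6, ITGA9, ITGAV, ITGB1, ITGB5 and LAMA1. These are all 7 of the member integrin genes at 5 or more in either library and 1 of the 6 laminin genes. ITGA6 (-1.03) and ITGB1 (-1.06) were only just past the rule. They counted as lower under 6 and 7 of the 10 alternatives, and with the length trend removed they fell short of it (-0.94 and -0.90). ITGA2B and ITGB3, which are no members, were higher in HPC by log2 differences of 5.86 and 5.59. Over all genes 3.01% were higher and 3.57% lower (8.99% and 10.7% of those at 5 or more in either library), and the counts of members were the same with the GC trend removed, with 2.6% and 3.53% of all genes (6.97% and 9.46% of those at 5 or more). The median difference was -0.15 over the members and 0.00 over all genes, and -1.06 and 0.02 among genes at 5 or more in either library. Markers of endothelium summed to 292 in HPC and 600 in HEP, and those of red cells to 2700 and 16.5. Those of smooth muscle and mesenchyme summed to 184 and 634, but the genes of this list went both ways. TAGLN stood at 12.4 in HPC and 233 in HEP, and COL1A2 at 53.4 and 235. ACTA2 stood at 19.2 in HPC and 6.81 in HEP, and COL3A1 at 41.7 and 23.1. The part of these cell types in the lower integrin values was not tested.

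Between HPC and hESC, the ends of the series, 3 members were higher (ITGA5, ITGA9 and LAMA5) and 5 lower (ITGA6, ITGA7, ITGB1, ITGB5 and LAMA1), with 4.66% of all genes higher and 15.8% lower (11.1% and 37.4% of those at 5 or more in either library). Taking out the GC trend left 5 higher and 4 lower, with 6.79% and 5.79% of all genes (17.5% and 14.9% of those at 5 or more); ITGAV and LAMB1 joined the higher genes and ITGB1 left the lower ones. The median difference was -0.03 over the members and -0.14 over all genes, and 0.18 and -0.57 among genes at 5 or more in either library. Of the members at 5 or more, the integrin genes had a median of -1.71 and the laminin genes of 0.86. With the GC trend removed these 2 medians were 0.28 and 0.85. Median-of-ratios scaling gave 7 higher and 5 lower and moved the median of the same 6388 genes from -0.44 to 0.13. These comparisons share libraries, so their counts are not independent of each other.

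**Figure D2:**
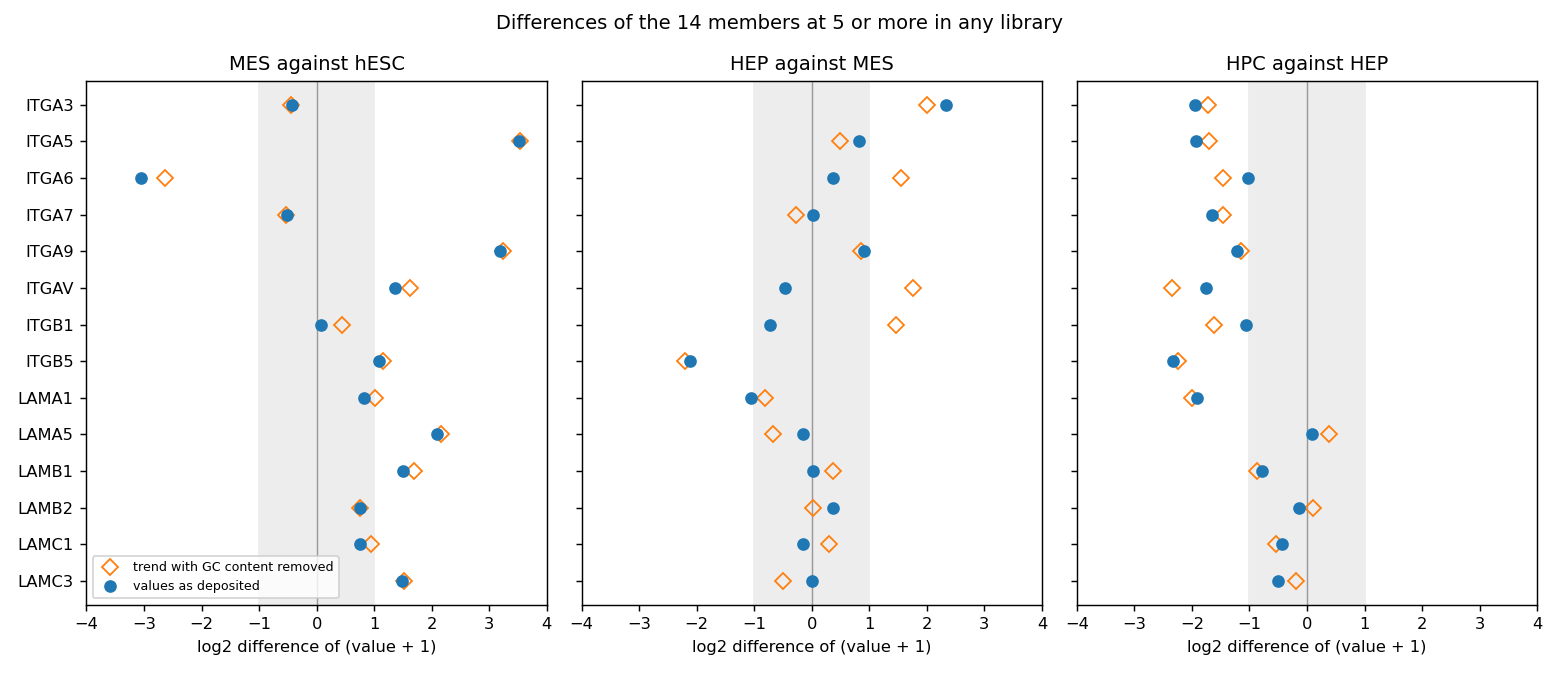
For the 14 members at 5 or more in any library, the horizontal axis gives the log2 difference of (value + 1) in each successive comparison, with filled circles as deposited and open diamonds after the trend with GC content was removed; the grey band spans differences under 1 in size. ITGA5 and ITGA9 lie at 3.52 and 3.19 in the first panel, the diamonds of ITGAV and ITGB1 leave their circles in the middle one, and all 8 integrin genes lie below -1 in the last.

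Promoter windows are shown for the genes that were higher in MES than in hESC and whose RefSeq window holds a transcript start annotated in GENCODE 29, since these moved together at the first step. RefSeq windows of 250 bases before to 50 after the gene start (build GRCh38.p14) were at hand for 25 of the 35 genes. The windows shown are chr12:54419217-54419516 on the minus strand for ITGA5, chr2:186589806-186590105 on the plus strand for ITGAV, chr20:62367263-62367562 on the minus strand for LAMA5 and chr7:108003112-108003411 on the minus strand for LAMB1. Each runs from upstream sequence into the first transcribed bases and is written 5′ to 3′ along its gene, with the GC box GGGCGG, on either strand and overlapping matches included, in capitals.
ITGA5: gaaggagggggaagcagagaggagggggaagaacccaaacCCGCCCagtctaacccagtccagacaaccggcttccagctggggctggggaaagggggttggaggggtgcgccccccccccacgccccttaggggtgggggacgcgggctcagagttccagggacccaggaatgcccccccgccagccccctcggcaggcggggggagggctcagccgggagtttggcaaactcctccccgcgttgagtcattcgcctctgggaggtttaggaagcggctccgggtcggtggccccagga
ITGAV: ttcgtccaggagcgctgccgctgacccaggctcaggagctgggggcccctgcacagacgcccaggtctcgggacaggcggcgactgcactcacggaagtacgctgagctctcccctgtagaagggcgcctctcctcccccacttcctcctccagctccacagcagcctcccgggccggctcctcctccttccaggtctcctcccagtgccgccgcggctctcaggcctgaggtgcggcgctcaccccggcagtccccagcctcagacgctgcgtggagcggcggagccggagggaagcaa
LAMA5: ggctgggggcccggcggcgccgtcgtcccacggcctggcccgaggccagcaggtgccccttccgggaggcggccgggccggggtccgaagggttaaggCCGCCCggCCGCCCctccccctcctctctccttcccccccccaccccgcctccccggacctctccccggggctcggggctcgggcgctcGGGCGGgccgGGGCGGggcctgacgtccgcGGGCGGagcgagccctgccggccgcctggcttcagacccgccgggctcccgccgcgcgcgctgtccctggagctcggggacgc
LAMB1: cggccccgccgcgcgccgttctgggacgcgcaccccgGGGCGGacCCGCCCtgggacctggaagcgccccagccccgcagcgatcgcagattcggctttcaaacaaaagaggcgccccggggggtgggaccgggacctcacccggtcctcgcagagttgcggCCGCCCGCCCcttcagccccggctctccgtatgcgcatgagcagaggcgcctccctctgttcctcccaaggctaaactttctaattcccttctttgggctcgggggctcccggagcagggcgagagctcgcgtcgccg

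The LAMA5 window held 5 GC boxes, that of LAMB1 4, that of ITGA5 1 and that of ITGAV none. Of all 27305 windows 44.6% held the motif, and of the 25 windows of members 56%, which is a description of letters and not of binding. GC content was 82.7% in the LAMA5 window, 71% in LAMB1, 70.7% in ITGAV and 69.3% in ITGA5, against a median of 58.3% over all windows. The core CCGGAA of ETS factors, which are active in vessel and blood formation, was searched on both strands too and stood in 17.6% of all windows and 4 of 25 member windows (ITGB1, ITGB5, LAMA5 and LAMB2). AGATAA, bound by GATA factors, stood in 10.5% of all windows and 1 member window (LAMA4). CAGGTG, bound by the SNAI and ZEB repressors, stood in 20.6% of all windows and 7 member windows, and TATAAA in 12% and in 1, that of ITGA6.

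Laminin receptors. ITGA6, the alpha subunit of the main laminin receptor of stem cells, stood at 40.1 (hESC), 3.95 (MES), 5.42 (HEP) and 2.15 (HPC). It was the 1416th highest gene of the hESC library and the 7390th of the MES library. The log2 difference between MES and hESC was -3.05, and ITGA6 counted as lower in MES under every one of the 10 alternative settings tried. Its other partner ITGB4, which forms the hemidesmosome receptor of epithelia, was at or below 0.23 in all 4 libraries.

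ITGA3, which pairs with beta1 to bind laminins that carry the alpha3 or alpha5 chain, stood at 4.23 (hESC), 2.88 (MES), 18.6 (HEP) and 4.05 (HPC). HEP alone was high, by a log2 difference of 2.33 against MES, and the difference between HPC and HEP was -1.95. ITGA7, a laminin receptor subunit best known from muscle, stood at 5.91 (hESC), 3.81 (MES), 3.88 (HEP) and 0.56 (HPC). HPC was the low library, at a log2 difference of -2.15 against hESC. Exons of ITGA7 overlap exons of BLOC1S1 and METTL7B on the other strand, and whether reads were counted by strand is not stated, so reads of these genes cannot be told apart there.

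Fibronectin and RGD receptors. ITGA5, the alpha subunit of the classical fibronectin receptor, stood at 6.69 (hESC), 87.2 (MES), 154 (HEP) and 39.7 (HPC). It was the 5728th highest gene in hESC and the 294th in HEP. The log2 difference was 3.52 between MES and hESC and 2.40 between HPC and hESC, and both counts as higher were kept under all 10 alternatives. Between HPC and HEP the difference was -1.93. The step between HEP and MES, 0.82 on the log2 scale, did not reach the size of the rule as deposited; it did with the 3 other scalings (1.06 to 1.39) and with the length trend removed (1.44).

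FN1, the fibronectin gene and thus the ligand of this receptor, stood at 12.2 (hESC), 158 (MES), 545 (HEP) and 90 (HPC). Receptor and ligand genes were both lowest in hESC and highest in HEP. The ratio of the ITGA5 level to the FN1 level was 0.55 (hESC), 0.553 (MES), 0.283 (HEP) and 0.441 (HPC).

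ITGAV, the alpha subunit shared by the vitronectin and latent TGF-beta receptors, stood at 11.6 (hESC), 31.2 (MES), 22.4 (HEP) and 5.92 (HPC). As deposited MES was high and HPC low, with log2 differences of 1.36 between MES and hESC and -1.76 between HPC and HEP. Between HEP and MES the sign depended on the processing: -0.46 as deposited, 1.76 with the GC trend removed, 0.35 with the length trend removed, and 0.09 and 0.05 with median-of-ratios and upper quartile scaling. Between HPC and hESC it was -0.86 as deposited and 1.04 with the GC trend removed. The transcripts of ITGAV average 38.3% GC, the lowest of the 14 genes.

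ITGB5, the beta subunit of the vitronectin receptor alphaV beta5, stood at 57.5 (hESC), 123 (MES), 27.4 (HEP) and 4.67 (HPC). It was the 406th highest gene in MES, ahead of ITGB1, and the 5437th in HPC. The log2 difference was 1.08 between MES and hESC, -2.12 between HEP and MES and -2.32 between HPC and HEP, and the 2 negative differences passed the rule under all 10 alternatives. ITGB8, an activator of latent TGF-beta with alphaV, was highest in MES at 2.37, against 0.62 in hESC, 0.19 in HEP and 0.17 in HPC, all below the minimum of 5. ITGB6, the epithelial partner of alphaV, was at 0.02 in MES and listed at 0 in the other 3 libraries. ITGA8, an RGD receptor subunit known from kidney and smooth muscle, was at 0.01 (hESC), 0.59 (MES), 1.73 (HEP) and 1.27 (HPC).

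ITGB3, the remaining partner of alphaV and no member here, stood at 0.09 (hESC), 0.37 (MES), 0.56 (HEP) and 74 (HPC). Its platelet partner ITGA2B stood at 1.43, 1.30, 3.90 and 283 in the same order.

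The alpha4 and alpha9 pair. ITGA9, whose beta1 pair binds tenascin, the EDA form of fibronectin and VCAM1, stood at 1.73 (hESC), 23.9 (MES), 46 (HEP) and 19.3 (HPC). Its log2 difference between MES and hESC was 3.19, and the difference was 2.89 between HPC and hESC and -1.21 between HPC and HEP. TNC, the tenascin gene, had its highest value at MES: it stood at 1.36 (hESC), 60.1 (MES), 27.1 (HEP) and 0.64 (HPC). ITGA4, the close relative of ITGA9 that blood progenitors use to bind VCAM1 and fibronectin, stood at 0.59, 0.82, 1.10 and 1.82 from hESC to HPC, under 5 in each library. ITGB7, the other partner of alpha4, was at or below 0.20 throughout.

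The common beta subunit. ITGB1, which pairs with 12 of the alpha subunits analysed, stood at 109 (hESC), 115 (MES), 68.9 (HEP) and 32.6 (HPC). HPC was the low library, with a log2 difference of -1.06 against HEP and -1.71 against hESC. With the GC trend removed HEP was instead higher than MES, by 1.46 against -0.73 as deposited, and the difference between HPC and hESC became 0.28. ITGB1 has transcripts of 39.5% GC.

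Collagen receptors and leukocyte integrins were low. ITGA1, whose exons overlap those of PELO, reached 1.33 and ITGA2 1.35, both in MES, and ITGA10 and ITGA11 stayed at or below 0.37. ITGB2, the beta subunit that leukocyte integrins such as LFA-1 share, stood at 0.13 (hESC), 0.35 (MES), 2.09 (HEP) and 3.68 (HPC). Of the members at 1 or more in any library, ITGB2 and ITGA4 were the ones highest in HPC. The ITGB2 alpha partners ITGAL, ITGAM and ITGAX stayed at or below 0.19, so no pair of ITGB2 had both genes above that level. ITGAE, the E-cadherin receptor subunit of mucosal T cells, was at or below 0.30.

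Among the 16 alpha genes analysed, the make-up changed most at the first step. ITGA2B is not in these sums. It stood at 3.90 in HEP and at 283 in HPC, where the 16 genes summed to 76.75. Of the summed alpha values, ITGA6 made up 54.8% (hESC), 2.50% (MES), 2.12% (HEP) and 2.80% (HPC). ITGA5 made up 9.14%, 55.2%, 60.5% and 51.7%, and ITGA9 2.36%, 15.1%, 18% and 25.1%. Such shares within a library do not depend on how libraries are scaled; with the GC trend removed ITGA6 made up 45.9% and ITGA5 14.8% in hESC, and ITGA5 63.2% in MES. Among the 7 beta genes analysed, which leave out ITGB3, ITGB1 made up 65%, 47.8%, 69.6% and 79%. ITGB2 made up 0.0776%, 0.145%, 2.11% and 8.93%, and ITGB5 34.3% (hESC), 51% (MES), 27.7% (HEP) and 11.3% (HPC). In HPC the ITGB3 value was 74, against 32.6 for ITGB1. The ITGB5 shares with the GC trend removed were 54.7%, 66.1%, 13.2% and 7.42%.

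**Figure D3:**
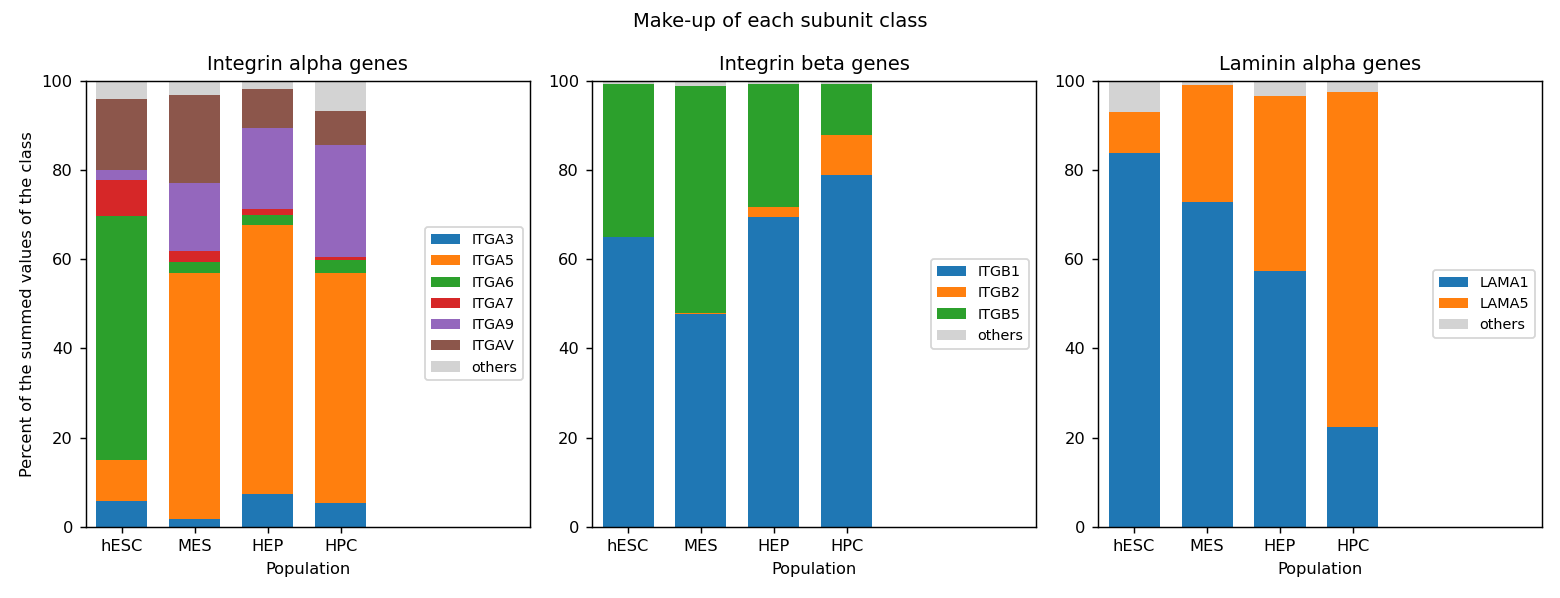
Stacked bars give, as deposited, the percent of the summed values of each class held by each gene in each library. The classes are the integrin alpha, integrin beta and laminin alpha genes, with ITGA2B and ITGB3 left out. Genes that never reach 5% are pooled as others. ITGA6 fills 54.8% of the alpha bar in hESC and ITGA5 55.2% in MES, while LAMA5 fills 75.1% of the laminin alpha bar in HPC.

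The balance of alpha to beta1 was also compared, since every beta1 integrin needs 1 of each. The 12 alpha genes that pair with ITGB1 summed to 73 (hESC), 157 (MES), 255 (HEP) and 76.1 (HPC). Their ratio to ITGB1 was 0.67 (hESC), 1.37 (MES), 3.70 (HEP) and 2.34 (HPC). As deposited, beta1 thus exceeded its partners in hESC and was exceeded by them in the other 3 libraries. With the GC trend removed the ratio was 1.06, 2.38, 1.58 and 1.5. Beta1 then no longer exceeded its partners in hESC, and MES instead of HEP had the highest ratio. The sum counts all of ITGAV, which also pairs with other beta subunits. Without ITGAV the ratio was 0.564, 1.1, 3.38 and 2.16 as deposited, and 0.956, 2.11, 1.24 and 1.31 with the GC trend removed. ITGA5 alone exceeded ITGB1 in HEP (154 against 68.9) and in HPC (39.7 against 32.6) as deposited, but in neither with the trend removed, where its ratio to ITGB1 was 0.768 and 0.712.

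Laminin alpha chains. LAMA1, the alpha chain of laminin-111 in the earliest embryonic basement membranes, stood at 17.8 (hESC), 32.3 (MES), 15.1 (HEP) and 3.29 (HPC). MES was high and HPC low, with log2 differences of -1.05 between HEP and MES and -1.91 between HPC and HEP. The lower level in HEP than in MES passed the rule under 3 of the 10 alternatives and under none of the 5 changes of scale or trend, where the difference was -0.82 to -0.32. LAMA5, the alpha chain of laminin-511 and laminin-521 in stem cell and vessel basement membranes, stood at 1.98 (hESC), 11.6 (MES), 10.4 (HEP) and 11 (HPC). Only hESC was low, with a log2 difference of 2.08 between MES and hESC, and as deposited the other 3 libraries lay between 10.4 and 11.6. With the GC trend removed LAMA5 stood at 2.21 (hESC), 13.4 (MES), 8.07 (HEP) and 10.8 (HPC). The difference between HEP and MES was then -0.67, and 0.66 with the length trend removed, both short of the rule.

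Of the laminin alpha sum, LAMA1 made up 83.8% (hESC), 72.8% (MES), 57.3% (HEP) and 22.5% (HPC). LAMA5 made up 9.31%, 26.2%, 39.4% and 75.1%. The ratio of LAMA5 to LAMA1 was 0.111 (hESC), 0.36 (MES), 0.687 (HEP) and 3.34 (HPC); with the GC trend removed it was 0.149, 0.433, 0.467 and 3.03, so MES and HEP then lay close together. LAMA5 has the most GC-rich transcripts of the 14 genes (66.4%), and its exons overlap those of ADRM1 on the other strand, a proteasome gene at 61.2 to 107 in the 4 libraries, so the same limit holds as for ITGA7. LAMA4, the other alpha chain known from vessels, was at 0.71 (hESC), 0.36 (MES), 0.75 (HEP) and 0.26 (HPC). LAMA2, of muscle, and LAMA3, of epithelia, were highest in hESC at 0.33 and 0.43.

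Laminin beta and gamma chains. LAMB1, the beta chain of laminin-111 and laminin-511, stood at 9 (hESC), 27.3 (MES), 27.8 (HEP) and 15.8 (HPC), with a log2 difference of 1.5 between MES and hESC. Its exons overlap those of DLD, a mitochondrial enzyme gene on the other strand, at 15.3, 10.4, 1.19 and 3.74 from hESC to HPC. LAMB2, its counterpart in laminin-521, stood at 14.8, 25.8, 33.7 and 30.6 in the same order. HPC differed from hESC by 0.997 on the log2 scale, just short of the rule. LAMC1, the gamma chain of most laminins, stood at 18.5 (hESC), 31.8 (MES), 28.7 (HEP) and 21.1 (HPC). As deposited its highest value was 1.72 times its lowest, the smallest spread of the 14 genes. With the GC trend removed LAMC1 ran from 14.4 (hESC) to 35.5 (HEP), a wider spread than that of LAMB2, from 16.2 (hESC) to 30.5 (HPC). LAMC3, a less common gamma chain, stood at 3.17, 10.6, 10.6 and 7.21. LAMB3, a beta chain of epithelia, was at or below 0.38. LAMB4 was at or below 0.15.

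Summed by class, the ratio of the alpha chains to the gamma chains was 0.855 (hESC), 1.01 (MES), 0.657 (HEP) and 0.507 (HPC). The beta chains stood at 0.976, 1.22, 1.54 and 1.62 times the gamma chains in the same order. The alpha chains were thus the lowest class in hESC, HEP and HPC, while in MES they stood next to the gamma chains. With the GC trend removed the ratio of alpha to gamma chains was 0.874, 1.05, 0.595 and 0.466.

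Base composition moved with the differences, most in the comparison of HEP and MES. Over 6366 genes averaging at least 5 the Spearman rho of the log2 difference between HEP and MES with the GC content of the transcripts was 0.71, a description across genes that share 2 libraries. The rho was 0.22 between MES and hESC, -0.43 between HPC and HEP and 0.54 between HPC and hESC. Between HEP and MES, genes within 2 points of the GC content of ITGB1 had a median difference of -1.84, against -0.73 for ITGB1 itself. For ITGAV the neighbours' median was -1.90 and its own value -0.46, and for ITGA6 they were -1.23 and 0.38. For ITGB5 (54.3% GC) the neighbours' median was 0.05, far from its own -2.12, and for ITGA3 (60.4%) it was 0.32 against 2.33. Transcript length had a rho of -0.14 between HEP and MES.

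**Figure D4:**
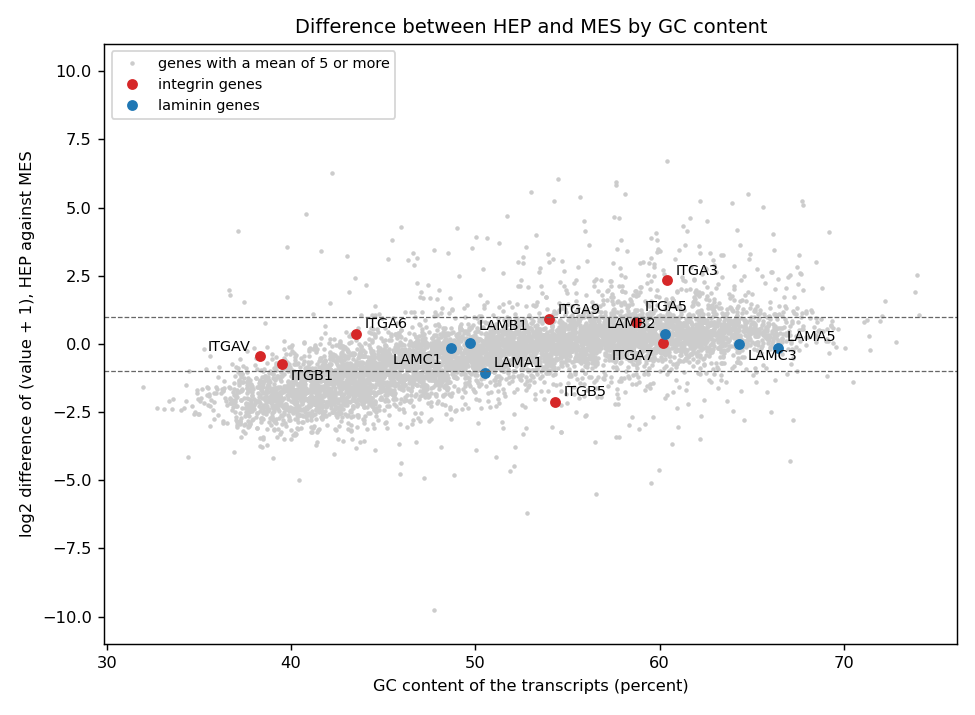
Grey points are genes with a mean of 5 or more, by GC content of their transcripts in percent (horizontal) and log2 difference of (value + 1) between HEP and MES (vertical); integrin genes are red, laminin genes blue, and dashed lines mark differences of 1 in size. ITGAV, ITGB1 and ITGA6 lie above genes of like GC content, ITGB5 below them at -2.12 and ITGA3 above them at 2.33.

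The partners of these genes were read from 5 lists. Matrix ligands of integrins other than laminin had 8 of 16 genes higher in MES than in hESC and 2 lower, with a median log2 difference of 0.98. FBN2, a fibrillin with an RGD site, stood at 4.19 (hESC), 150 (MES), 67.9 (HEP) and 9.62 (HPC), and TGFB1, whose latent form alphaV integrins activate, at 0.55, 12.7, 27.8 and 22. Between HEP and MES 3 of this list were higher and 6 lower, and between HPC and HEP 1, the platelet and matrix protein THBS1 (28.2 in HPC, 3.47 in HEP), was higher and 3 were lower. Over all genes the shares higher and lower were 3.79% and 3.7%, 3.31% and 13.9%, and 3.01% and 3.57% in the order of these comparisons. Among genes at 5 or more in either library, which include 12, 12 and 9 of this list, they were 8.97% and 8.76%, 8.08% and 33.9%, and 8.99% and 10.7%. With the GC trend removed this list had 8 higher and 1 lower, 2 and 4, and 1 and 5. The shares over all genes were then 4.08% and 2.05%, 4.07% and 4.02%, and 2.6% and 3.53%. Among genes at 5 or more they were 10.9% and 5.5%, 10.6% and 10.4%, and 6.97% and 9.46%.

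Basement membrane partners of laminin had 4 of 15 higher in MES than in hESC and 1 lower, 6 higher and 1 lower in HEP than in MES, and none higher and 7 lower in HPC than in HEP. Over all genes 3.79% were higher and 3.7% lower in the first of these comparisons, 3.31% and 13.9% in the second, and 3.01% and 3.57% in the third; of the genes at 5 or more in either library, which include 13, 15 and 14 of this list, the shares were 8.97% and 8.76%, 8.08% and 33.9%, and 8.99% and 10.7%. With the GC trend removed this list had 5 higher and 1 lower, 5 and 1, and none higher and 7 lower. The shares over all genes for that setting are those given with the matrix ligands. The collagen IV genes COL4A1 and COL4A2, whose products form the other sheet of the membrane, were highest in HEP. COL4A1 stood at 23.9 (hESC), 43 (MES), 158 (HEP) and 38.3 (HPC). COL4A2 stood at 21.4, 40.5, 209 and 68.9. NID2, a nidogen that ties laminin to collagen IV, stood at 0.81, 0.50, 9.09 and 5.78. LAMC1, the chain that nidogen binds, differed by less than the rule at each of these steps.

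Cytoplasmic linkers had 3 of 31 genes higher in MES than in hESC and none lower, 6 higher and 4 lower in HEP than in MES, and 3 higher and 4 lower in HPC than in HEP. At 5 or more in either library stood 19, 21 and 20 of its genes in these comparisons, and the shares over all genes are those given for the basement membrane list. With the GC trend removed the linkers had 3 higher and none lower, 4 and 2, and 1 and 5. The shares over all genes for that setting are those given with the matrix ligands. The kindlins, which activate integrins from inside, differed in where they were highest. FERMT2, the kindlin of adherent cells, stood at 42.3 (hESC), 104 (MES), 14.5 (HEP) and 8.20 (HPC). FERMT3, the kindlin of blood cells and platelets, stood at 0.51, 0.54, 37.1 and 158. FERMT1, the kindlin of epithelia, which is added after its values were seen to complete the family, stood at 1.86, 0.73, 0 and 0.15. The lower FERMT2 in HPC than in hESC, -2.23 on the log2 scale, was -0.71 with the GC trend removed, while FERMT3 differed by 6.72 as deposited and 6.65 with it removed. TLN1, the talin gene, stood at 12.9, 34.3, 77.5 and 93.1. RASGRP2, which activates RAP1 upstream of talin in platelets, stood at 4.05 (hESC), 0.07 (MES), 11.9 (HEP) and 18.2 (HPC).

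Cell surface ligands split within their list at each step. Between MES and hESC 1 of 11 was higher and 1 lower, between HEP and MES 2 and 2, and between HPC and HEP 1 and 1. Over all genes the shares were 3.79% and 3.7%, 3.31% and 13.9%, and 3.01% and 3.57%. Among genes at 5 or more in either library, which include 4, 5 and 4 of this list, they were 8.97% and 8.76%, 8.08% and 33.9%, and 8.99% and 10.7%. With the GC trend removed the list had 1 higher and 2 lower, 2 and 2, and 1 and 1. The shares over all genes for that setting are those given with the matrix ligands. ICAM2, a ligand of the beta2 integrins on endothelium and platelets, stood at 0.80 (hESC), 0.20 (MES), 73.2 (HEP) and 113 (HPC). ICAM4, a red cell ligand, reached 40.9 in HPC, against 3.07 in HEP. E-cadherin, CDH1, the ligand of the ITGAE integrin, stood at 31.5, 12.5, 2.76 and 1.13 from hESC to HPC. Of 12 membrane partners none was higher in MES than in hESC and 1 was lower, 2 were higher and 1 lower in HEP than in MES, and 2 were higher and none lower in HPC than in HEP. At 5 or more in either library stood 6, 6 and 8 of these partners, beside the same shares over all genes as for the surface ligands. With the GC trend removed these partners had none higher and 1 lower, 1 and 1, and 2 higher and none lower. CD9, a tetraspanin that binds beta1 integrins, stood at 63.7, 22.7, 14.3 and 8.45, and CD82, another tetraspanin, at 1.38, 0.42, 3.41 and 56.

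The median log2 difference of the basement membrane list was 0.80 between MES and hESC, 0.73 between HEP and MES, -0.94 between HPC and HEP and 0.77 between HPC and hESC. Those of the linker list were 0.20, 0.00, -0.10 and -0.19 in the same order, beside -0.02, -0.11, 0.00 and -0.14 over all genes.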

How the data were processed

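RNA was measured in 4 libraries, 1 per population, made per the labels' protocols from 2 ug of total RNA with the Illumina TruSeq RNA kit. The authors deposited 1 table per library, with a normalised signal for each gene symbol. BWA, Bowtie, RSEM and hg19 are named, per the submitters' processing notes; tool versions, gene annotation, the kind of RSEM measure and strandedness: not given in the sources used here. Each table had 17634 rows; 4 with shared names were left out. The depth is unknown, so no interval or floor is given.

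Differences are of log2(value + 1), with the rule of size stated in the text (Python 3.11.15, pandas 2.3.3, NumPy 2.4.6, SciPy 1.17.1); the procedure was tested on simulated data. GC content and length are medians over protein-coding transcripts of the GENCODE 29 basic set, found for 17428 genes (98.9%) and all 35 members; trends were taken out per library over 50 bins, 5 neighbours averaged. Members at 5 or more in any library were named with all values, others by range, and up to 4 genes per partner list and comparison were eligible. The values of 1 member are not reported here. Members and lists were chosen with earlier results of these data known. Alternatives were pseudocounts 0.1 and 5, no minimum and 20, a fold of 4, 3 scalings and the GC and length trends removed.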

Additional observations from a re-analysis of the deposited data

How the results depend on the processing

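Of 560 differences of named members under an alternative, 466 kept both their sign and their side of the rule. The sign turned in 28, over 8 genes, and in 24 of these the difference stayed short of the rule before and after. The 28 fell to the GC trend removed (7), the length trend removed (6), and median-of-ratios scaling, upper quartile scaling and a common total (5 each). Another 29 came past the rule and 37 fell short of it with the same sign. In 4 the sign turned and the size was 1 or more before or after, all 4 with the GC trend removed. These were ITGAV (1.76) and ITGB1 (1.46) between HEP and MES, and ITGAV (1.04) and ITGB1 (0.28) between HPC and hESC. Between MES and hESC, 3 members were higher at a fold of 4. Between HEP and MES, the number higher was 2 with no minimum, 0 with a minimum of 20, 3 with median-of-ratios scaling, upper quartile scaling or a common total, and 4 with the GC or the length trend removed. The number lower was 1 with a pseudocount of 5, a fold of 4, each of the 3 scalings and either trend removed. Between HPC and HEP, 5 were lower with a minimum of 20 and 1 at a fold of 4. Between HPC and hESC, the number higher was 5 with a pseudocount of 0.1, no minimum, a common total or the GC trend removed, 1 with a minimum of 20, 7 with median-of-ratios or upper quartile scaling and 6 with the length trend removed. The number lower was 3 with a minimum of 20 or the length trend removed. The other 53 of 80 counts of members stayed within 1.5 times the value as deposited, as did 83 of 88 subunit shares and 302 of 400 counts of the partner lists. Apart from the higher minimum and the fold of 4, which by construction leave fewer genes, the cause was not tested. No paired analysis was possible because each population was 1 library and the labels carry no replicate numbers. With 1 library each and unknown depth, the error of any value, and that of genes near 0 most of all, cannot be given.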
